A study of Mus musculus with 3 samples.

Results

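The genes described here encode the machinery that copies DNA and supplies its building blocks. They are 45 genes named by their function in replication, read through the array probes whose platform gene symbol is one of those names. Of the 45 genes, 42 have a probe, out of 16593 genes with a probe in all, and those 42 genes have 69 probes. Gins1, Gins2 and Rfc3 have no probe matched here, and Orc2, Gmnn, Pola1 and Pole2 were detected on no array. The other 38 were detected somewhere, as were 9082 genes in all.

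The arrays carried RNA of 4T1 cells, a mouse breast cancer line, which had been labelled with GFP and implanted orthotopically in female Balb/C mice of 10 to 12 weeks. Flow cytometry then purified the cells of metastatic loci in the lung (MCC), of the systemic circulation (CCC) and of the primary breast tumour (PCC). All 3 groups carry the GFP label and come from implanted animals. Each group has 1 array, so no difference below has a replicate check, a standard error or a p-value, and the number of animals per array is not stated in the labels.

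Replication begins when the origin recognition complex marks a start site and the loaders Cdc6 and Cdt1 place the ring-shaped MCM helicase on DNA. The helicase is then switched on by Cdc45 and the GINS complex, primase and the polymerases alpha, delta and epsilon make the new strands, and the sliding clamp PCNA holds the polymerases in place. Ribonucleotide reductase, thymidylate synthase, thymidine kinase and dUTPase supply and guard the deoxynucleotides. Many of these genes are transcribed as cells enter S phase, under the E2F factors, and they are widely read as markers of proliferation in tumours.

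Levels are log2 intensities after background correction and quantile normalization of the 3 arrays, and a probe counted as detected at a detection p under 0.01. Between 41.0% (PCC) and 44.6% (CCC) of 25697 probes were detected, with 44.0% on MCC, and the lowest detected level was 5.60 on MCC, 5.54 on CCC and 5.88 on PCC. The array labelled MCC stood apart in genes of other cell types. Of 9 adipocyte markers, 7 were detected on MCC, 1 on CCC and 0 on PCC, and the mean level of the 7 was 10.7, 5.06 and 4.78 on these arrays. Of 12 lymphocyte markers, 9 were detected on MCC, 7 on CCC and 5 on PCC, with mean levels of 10.6, 8.05 and 5.91 over the 9 genes. Of 10 endothelial markers, 8, 8 and 6 were detected on MCC, CCC and PCC, with mean levels of 9.96, 7.88 and 6.90. Macrophage markers were highest on CCC, at a mean of 8.39 on MCC, 10.7 on CCC and 8.42 on PCC over 10 genes. Fibroblast markers had means of 8.81, 8.92 and 7.49 on MCC, CCC and PCC over 9 genes. Of 8 lung epithelial markers 4 were detected on MCC, 1 on CCC and 1 on PCC, with means of 7.70, 6.07 and 6.02, and the defining Sftpa1, Sftpb, Sftpc and Scgb1a1 were detected on no array. Neutrophil markers had means of 7.48, 7.68 and 7.93 over 5 genes, and red cell and platelet markers 8.97, 7.92 and 7.92 over 3 genes, in the order MCC, CCC and PCC. The neutrophil genes went in both directions. S100a8 and S100a9 were 28.4-fold and 29.6-fold lower on MCC than on PCC, and Csf3r was 1.09-fold lower. Ltf was 51.5-fold higher on MCC than on PCC, and Cxcr2 was detected on MCC only. Of 8 epithelial markers, 7 were detected on MCC, 4 on CCC and 4 on PCC, with means of 10.2, 7.26 and 7.13. Among them Krt8 was at 11.44 on MCC, 12.24 on CCC and 12.27 on PCC. Krt19 and Krt14 were detected on MCC only, at 9.41 and 9.63, and Krt7 was not detected on PCC. Epcam has no probe matched here. Whether the RNA of these epithelial genes came from the labelled carcinoma cells was not tested. The part of these other cell types in the results below was not tested.

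Replication genes were lower on the array labelled MCC than on the array labelled PCC. Of 34 members detected on both arrays, 28 were lower and 6 were higher (1 without normalization between arrays), and the median log2 difference was -0.99 (MCC minus PCC), beside -0.16 over all 6829 genes detected on both. At a size of 2-fold or more, 17 of the 34 members (50%) were lower, beside 21.1% of all genes, and 0 were higher, beside 14.2% of all genes. Another 3 members, Mcm7, Rrm2 and Dut, were detected on PCC and not on MCC. So 34 of the 37 members detected on PCC were also detected on MCC, beside 6829 of all 7487 genes detected on PCC. In RNA from sorted bulk cells, fewer cycling cells, less of these RNAs per cell and more RNA from other cell types cannot be told apart.

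The array labelled CCC was close to PCC in the same genes. Of 37 members detected on both, 19 were higher and 18 lower (28 and 9 without normalization between arrays), and the median log2 difference was 0.02 (CCC minus PCC), beside -0.10 over all 7286 genes. None of the 37 was 2-fold higher or 2-fold lower, beside 4.95% and 3.68% of all genes, and 34 of them (91.9%) lay within 1.5-fold, beside 75.3% of all genes. Prim1 was detected on CCC only.

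Set against CCC, the array labelled MCC was again the lower one. Of 34 members, 29 were lower and 5 higher (34 and 0 without normalization between arrays), with a median of -1.02 (MCC minus CCC), beside 0.01 over 7313 genes, and 19 (55.9%) were at least 2-fold lower, beside 16.6% of all genes. None was 2-fold higher, beside 17.3% of all genes. The comparisons of MCC with CCC and with PCC share the MCC array, so they are not independent. Of 34 members detected on all 3 arrays, MCC was the lowest array for 26 (76.5%), against 47.1% of the 6753 genes detected on all 3.

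**Figure D1:**
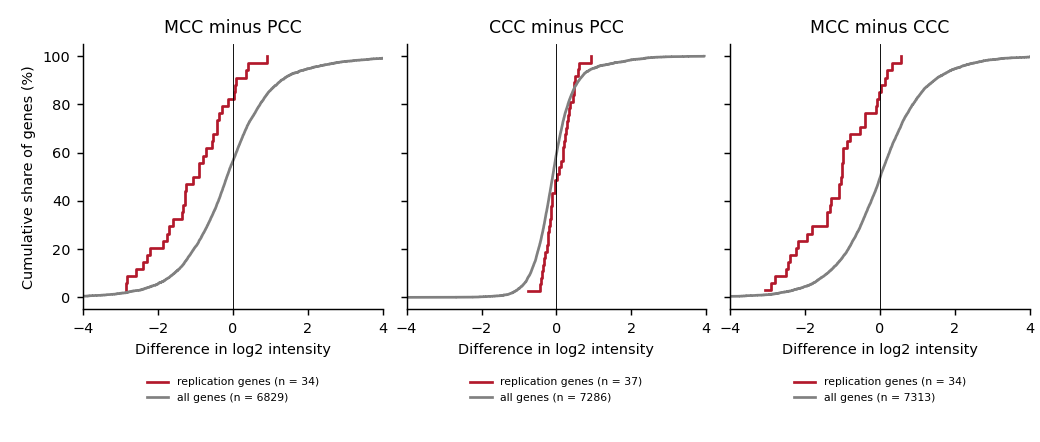
Cumulative share of genes (vertical axis, %) by difference in log2 intensity (horizontal axis) for each pair of arrays, in red for replication genes and in grey for all genes detected on both arrays. The red curve lies left of the grey one for MCC minus PCC (medians -0.99 and -0.16) and for MCC minus CCC (-1.02 and 0.01), and is steeper around 0 for CCC minus PCC.

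**Figure D2:**
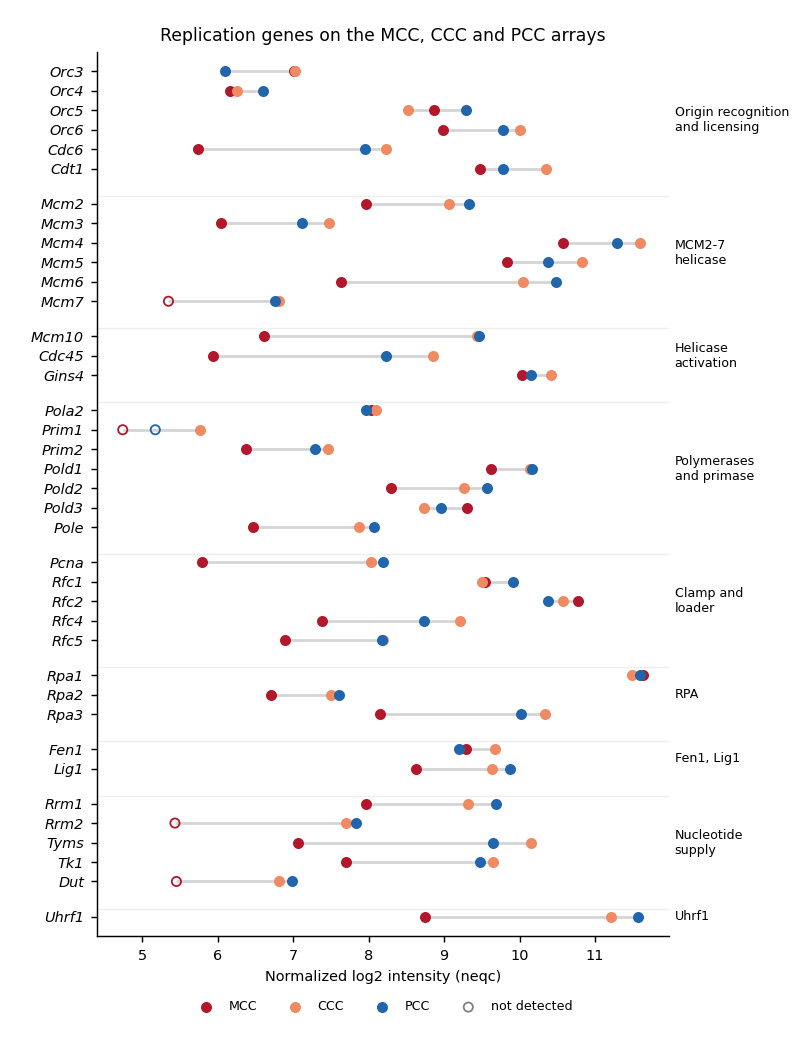
Normalized log2 intensity (horizontal axis) of the 38 replication genes detected on at least 1 array, with 1 point per array and grey lines joining the arrays of a gene; open points are not detected. For 26 of the 34 genes detected on all 3 arrays the MCC point lies farthest left, while CCC and PCC points lie close together.

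Mcm2 to Mcm7 form the ring that unwinds DNA. All 5 members of the ring detected on both arrays were lower on MCC than on PCC, from 1.45-fold to 7.21-fold, with a median log2 difference of -1.07. Mcm6 was at 7.63 on MCC, against 10.48 on PCC, with 10.04 on CCC, so it was 7.21-fold lower on MCC than on PCC, and its second detected probe gave 7.11-fold. Mcm10, at -2.85, and Uhrf1, at -2.83, had log2 differences close to that of Mcm6, at -2.85, and their order changed between processing alternatives. Mcm2 stood at 7.97 on MCC, 9.07 on CCC and 9.33 on PCC, and was 2.58-fold lower on MCC than on PCC. Mcm3 was dimmer, at 6.05 on MCC, 7.47 on CCC and 7.11 on PCC, which made it 2.09-fold lower on MCC than on PCC, near the lower end of detection.

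Mcm4 and Mcm5 moved less than Mcm2, Mcm3 and Mcm6 between MCC and PCC, and Mcm7 has only a bound. Mcm4 read 10.57 on MCC, 11.60 on CCC and 11.29 on PCC, a 1.65-fold lower level on MCC than on PCC. Mcm5 read 9.84 on MCC, 10.83 on CCC and 10.37 on PCC, 1.45-fold lower on MCC than on PCC. Both were below the 2-fold size against PCC, and against CCC they lay on either side of it, at 2.03-fold and 1.98-fold lower. Mcm7 was not detected on MCC (detection p 0.0175), against levels of 6.81 on CCC and 6.75 on PCC, and was at least 2.23-fold lower on MCC than on PCC. The log2 differences within the ring ran from -2.85 for Mcm6 to -0.53 for Mcm5. Between probes of 1 gene, the gap in this difference had a median of 0.37 and a 95th percentile of 1.41 over 1560 genes with several probes.

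Promoters of Mcm5, Mcm6 and Mcm7 are shown because the MCM genes are known E2F targets in mammals and these 3 ring genes have an E2F form before the start. Among the other ring genes, Mcm3 has its forms only after the start, at bases 20 and 39, Mcm2 has none, and Mcm4 has no entry. Mcm7 has a second start in the table (window chr5:138171267-138171446), whose promoter holds no E2F form and is not printed. The stretches below are the 180 bases before the start of transcription, read from RefSeq (GRCm38.p6, a C57BL/6J reference and not 4T1's own DNA), 5′ to 3′ on the gene's strand. Capitals mark matches to 3 E2F forms, TTTCCCGC, TTTGGCGC and TTTCGCGC, searched on both strands, and matches can overlap. Cdc6 and Orc3 are added as a loader that was lower on MCC and an origin subunit that was not, and Tyms as a gene with a large difference and no match in its window.
Mcm5, chr8:75109329-75109508, plus strand: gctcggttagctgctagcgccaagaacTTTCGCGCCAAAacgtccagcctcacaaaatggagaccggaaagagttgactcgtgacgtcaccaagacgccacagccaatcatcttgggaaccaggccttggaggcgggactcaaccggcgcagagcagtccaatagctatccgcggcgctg
Mcm6, chr1:128359706-128359885, minus strand: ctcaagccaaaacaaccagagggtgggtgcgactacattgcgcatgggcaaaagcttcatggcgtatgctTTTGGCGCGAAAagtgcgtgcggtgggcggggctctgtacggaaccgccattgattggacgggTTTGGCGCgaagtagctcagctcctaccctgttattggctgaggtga
Mcm7, chr5:138171884-138172063, minus strand: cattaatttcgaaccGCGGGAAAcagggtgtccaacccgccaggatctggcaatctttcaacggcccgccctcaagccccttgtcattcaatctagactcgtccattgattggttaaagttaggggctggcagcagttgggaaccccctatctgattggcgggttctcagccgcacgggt
Cdc6, chr11:98907971-98908150, plus strand: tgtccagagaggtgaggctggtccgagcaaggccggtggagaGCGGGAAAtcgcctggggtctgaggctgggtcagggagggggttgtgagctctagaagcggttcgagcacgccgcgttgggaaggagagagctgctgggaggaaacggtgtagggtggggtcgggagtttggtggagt
Orc3, chr4:34614943-34615122, minus strand: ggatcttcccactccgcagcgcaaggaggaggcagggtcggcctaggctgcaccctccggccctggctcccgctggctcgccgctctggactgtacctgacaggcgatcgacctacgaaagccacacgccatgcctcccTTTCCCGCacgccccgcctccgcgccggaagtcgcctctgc
Tyms, chr5:30073626-30073805, minus strand: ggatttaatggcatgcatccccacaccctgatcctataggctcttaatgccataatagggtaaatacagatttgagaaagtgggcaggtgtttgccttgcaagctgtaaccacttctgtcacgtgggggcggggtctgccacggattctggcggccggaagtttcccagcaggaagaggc

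In Mcm6 the forms begin 110, 106 and 47 bases before the start, and the first pair overlaps, and in Mcm5 an overlapping pair begins 153 and 149 bases before it. Over the table's 300-base promoters (250 bases before the start and 50 after), 14 of the 37 members with an entry (37.8%) held at least 1 E2F form, beside 2.12% of all 27025 genes. They are Mcm3, Mcm5, Mcm6, Mcm7, Cdc6, Cdt1, Orc3, Pola1, Pold1, Pold3, Pole2, Rfc3, Lig1 and Uhrf1. The CCAAT box, CCAAT on either strand, was in 59.5% of members with an entry, beside 41.1% of all genes, and the cell cycle element TTTGAA or TTCGAA in 16.2%, beside 21.7%. The 10 measured members with an E2F form had a median of -0.81 (MCC minus PCC) and ran from -2.85 to 0.92. The 19 without an E2F form had a median of -1.28 and ran from -2.85 to 0.09. For the CCAAT box, the 16 measured members with one had a median of -1.32 and the 13 without one a median of -0.55. These splits are descriptions and were not tested. A match is a description of letters and not of a bound site, and the 8 members without an entry were not searched.

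The factors that switch on the helicase included some of the largest differences between MCC and PCC. Mcm10, which helps the loaded helicase to start, was at 6.62 on MCC, 9.43 on CCC and 9.46 on PCC, 7.19-fold lower on MCC than on PCC, with CCC and PCC alike. Cdc45, which rides with the MCM ring, was at 5.94 on MCC, 8.85 on CCC and 8.23 on PCC. It was 4.90-fold lower on MCC than on PCC and 7.51-fold lower than on CCC. Gins4 of the GINS complex did not share this, at 10.03 on MCC, 10.42 on CCC and 10.15 on PCC, which is 1.09-fold lower on MCC than on PCC. Over the members of the active helicase (the MCM ring, Cdc45 and Gins4), 7 of 7 measured genes were lower on MCC than on PCC, with a median of -1.07. Gins3, a GINS subunit that is no member, was at 6.47 on MCC, 6.58 on CCC and 6.32 on PCC. Its difference between MCC and PCC changed sign between processing alternatives.

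Genes of the origin recognition complex and of licensing were nearer to the level of all genes. Over 6 measured genes of origin recognition and licensing the median was -0.44 (MCC minus PCC), with 1 (16.7%) at least 2-fold lower, near the 21.1% of all genes. Orc4 was at 6.16 on MCC, 6.26 on CCC and 6.59 on PCC, and Orc5 at 8.86, 8.53 and 9.29 on these arrays. Orc6, the subunit most loosely held in the complex, was at 8.98 on MCC, 10.01 on CCC and 9.78 on PCC, 1.73-fold lower on MCC than on PCC. Orc3 went the other way, at 7.01 on MCC and 7.02 on CCC, against 6.09 on PCC, so it was 1.89-fold higher on MCC and 1.91-fold higher on CCC than on PCC. Its level on PCC lay close to the lowest detected level of 5.88, and its fold is the largest upward one among the members.

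The loader Cdc6 stood apart from the other licensing genes. It was at 5.74 on MCC, 8.23 on CCC and 7.94 on PCC, and so 4.63-fold lower on MCC than on PCC, from the only 1 of its 4 probes that was detected. Cdt1, the other loader, was at 9.47 on MCC, 10.34 on CCC and 9.78 on PCC, which is 1.23-fold lower on MCC and 1.48-fold higher on CCC than on PCC. Geminin (Gmnn), which inhibits Cdt1, was not detected, nor was Orc2.

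**Figure D3:**
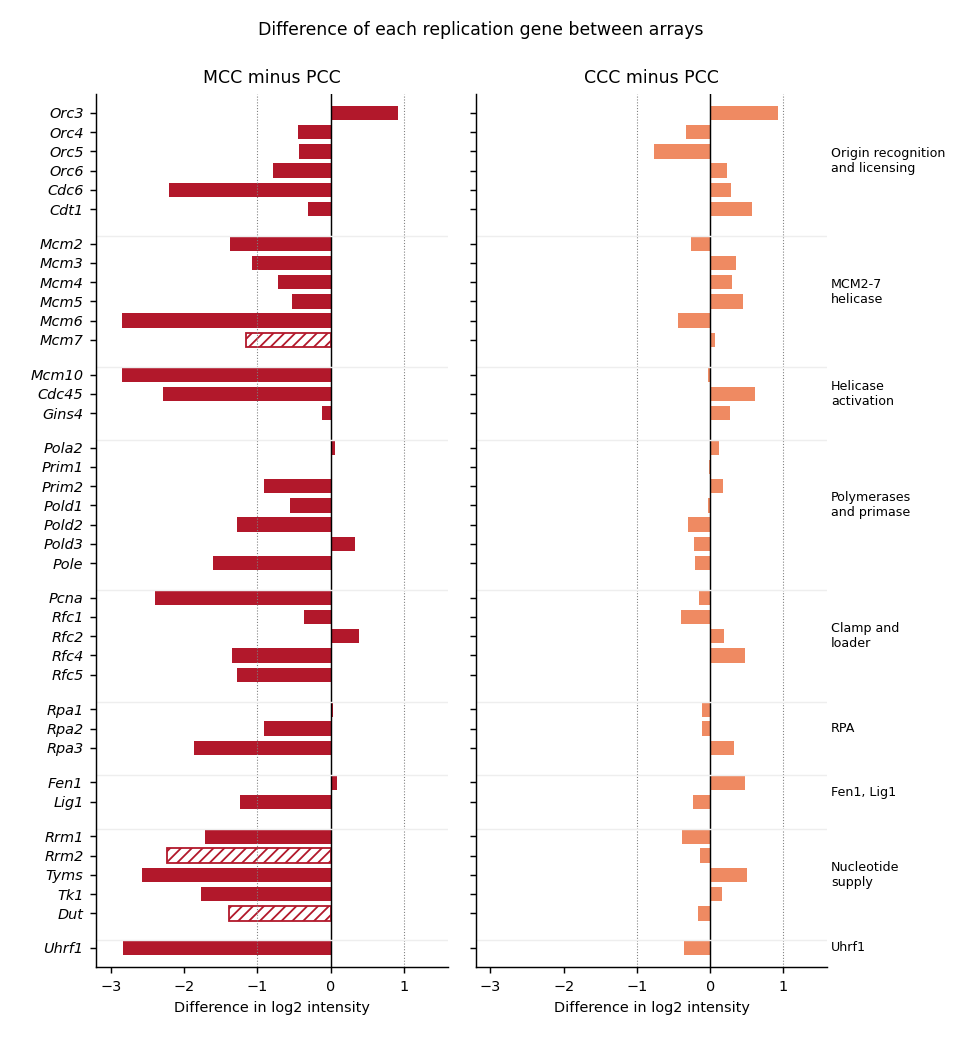
Difference in log2 intensity (horizontal axis) of each replication gene, MCC minus PCC on the left and CCC minus PCC on the right, by complex; hatched bars are lower bounds for genes not detected on MCC, Prim1 has no bar, and dotted lines mark 2-fold. The left panel holds 17 solid bars past 2-fold lower and the right panel holds 0 bars past 2-fold.

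Polymerase genes were split. Over 6 measured genes of the polymerases and primase the median was -0.73 (MCC minus PCC), with 2 (33.3%) at least 2-fold lower, beside 21.1% of all genes. Pole, the catalytic subunit of polymerase epsilon on the leading strand, was at 6.47 on MCC, 7.88 on CCC and 8.08 on PCC, 3.06-fold lower on MCC than on PCC. Pold2, an accessory subunit of polymerase delta, was at 8.30 on MCC, 9.27 on CCC and 9.57 on PCC, 2.42-fold lower on MCC than on PCC. The other delta members, Pold1 and Pold3, were not 2-fold lower. The catalytic Pold1 was at 9.61 on MCC, 10.14 on CCC and 10.16 on PCC, 1.46-fold lower on MCC than on PCC. The accessory Pold3 was at 9.30 on MCC, 8.74 on CCC and 8.96 on PCC.

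Of the primase and polymerase alpha genes, Pola2 was at 8.03 on MCC, 8.10 on CCC and 7.97 on PCC. Prim2, the large primase subunit, was at 6.38 on MCC, 7.46 on CCC and 7.29 on PCC, and its probes gave 1.88-fold and 2.72-fold lower levels on MCC than on PCC, on either side of the 2-fold size. Prim1, the catalytic primase subunit, was detected on CCC only, at 5.76, and was at least 1.12-fold lower on MCC than on CCC.

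The clamp showed one of the widest gaps. Pcna was at 5.79 on MCC, 8.03 on CCC and 8.19 on PCC, 5.26-fold lower on MCC than on PCC, with CCC and PCC near each other. Its loader, the RFC complex, was uneven. Rfc4 was at 7.39 on MCC, 9.21 on CCC and 8.73 on PCC, and Rfc5 at 6.89 on MCC, 8.19 on CCC and 8.18 on PCC, so they were 2.53-fold and 2.43-fold lower on MCC than on PCC. The large subunit Rfc1 was at 9.54 on MCC, 9.51 on CCC and 9.91 on PCC, and Rfc2 at 10.77 on MCC, 10.57 on CCC and 10.38 on PCC, both within 1.5-fold of PCC on MCC. Over the 5 measured genes of clamp and loader the median was -1.28.

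The single-strand binding protein RPA has 3 subunits that work as 1 unit, and their probes differed. Rpa1, the large subunit, was at 11.64 on MCC, 11.49 on CCC and 11.60 on PCC. Rpa2 was at 6.70 on MCC, 7.50 on CCC and 7.61 on PCC, 1.88-fold lower on MCC than on PCC. The second detected probe of Rpa2 gave 2.07-fold, on the other side of the 2-fold size. Rpa3, the small subunit, was at 8.15 on MCC, 10.34 on CCC and 10.02 on PCC, 3.64-fold lower on MCC than on PCC. The order of the differences thus ran from 0.04 for Rpa1 to -1.86 for Rpa3.

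In lagging-strand maturation, the flap nuclease Fen1 and the ligase Lig1 also parted. Fen1 was at 9.29 on MCC, 9.68 on CCC and 9.20 on PCC. Lig1 was at 8.63 on MCC, 9.64 on CCC and 9.87 on PCC, 2.36-fold lower on MCC than on PCC. The other Lig1 probes that were detected on both arrays gave 1.73-fold and 1.35-fold lower levels on MCC, the widest probe gap among the members (0.81 on the log2 scale). Pola2, Pold3, Rfc2, Rpa1 and Fen1 differed little between MCC and PCC (log2 differences of 0.04 to 0.39), and each was below 0 when the arrays were not normalized to each other, so no direction is given for them.

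Genes of nucleotide supply were lower on MCC without exception among those measured. Thymidylate synthase (Tyms), which makes dTMP, was at 7.07 on MCC, 10.15 on CCC and 9.65 on PCC, 5.98-fold lower on MCC than on PCC and 8.45-fold lower than on CCC. Thymidine kinase (Tk1), the salvage route to dTMP, was at 7.70 on MCC, 9.64 on CCC and 9.48 on PCC, 3.42-fold lower on MCC than on PCC. Rrm1, the large subunit of ribonucleotide reductase, was at 7.97 on MCC, 9.31 on CCC and 9.69 on PCC, 3.29-fold lower on MCC than on PCC.

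The remaining nucleotide genes were not detected on MCC. Rrm2, the small subunit of the reductase that is made in S phase, was at 7.69 on CCC and 7.84 on PCC and was at least 4.72-fold lower on MCC than on PCC. Dut, the dUTPase that keeps uracil out of DNA, was at 6.81 on CCC and 6.98 on PCC and at least 2.61-fold lower on MCC than on PCC. Both had a detection p of 0.0138 on MCC and count as detected there at a detection p under 0.05. Over the 3 genes measured on both arrays the median was -1.77 (MCC minus PCC), against -0.14 over 5 genes for CCC minus PCC.

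Uhrf1, which brings the methyltransferase Dnmt1 to newly copied DNA, was at 8.75 on MCC, 11.21 on CCC and 11.57 on PCC. It was 7.10-fold lower on MCC than on PCC and 5.52-fold lower than on CCC. Dnmt1 itself, which is no member, was at 8.92 on MCC, 9.72 on CCC and 9.60 on PCC, 1.61-fold lower on MCC than on PCC.

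Probes of 1 gene served as the only internal check on these values. For the 5 members with several probes detected on both MCC and PCC (Lig1, Mcm6, Orc5, Prim2 and Rpa2), every probe was lower on MCC, with gaps of 0.02 to 0.81 on the log2 scale. Of the 17 members at least 2-fold lower on MCC than on PCC, 16 were so in every processing alternative that gave them a value, and Mcm3 was not, at -0.76 under 75th percentile scaling, -0.78 with an offset of 50, -0.82 with no background correction and -0.94 in the authors' second table. Several of the levels on MCC lay just above the lowest detected level of 5.60, among them Cdc6, Pcna, Cdc45 and Mcm3, so their folds depend on the background step.

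A wider list of 110 genes that act beside the members was also compared. Of 78 measured on MCC and PCC, 55 were lower and 23 higher on MCC, 32 of them (41.0%) at least 2-fold lower and 6 (7.69%) at least 2-fold higher, beside 21.1% and 14.2% of all genes, with a median of -0.54. Between CCC and PCC, 1 of 84 was at least 2-fold lower (1.19%) and 3 were at least 2-fold higher (3.57%), beside 3.68% and 4.95% of all genes, with a median of -0.02. The gene that was lower on CCC is Myc (2.26-fold), and those that were higher are Umps (2.10-fold), E2f2 (2.18-fold) and Ccnd2 (3.16-fold). With no background correction or an offset of 50, Myc, Umps and E2f2 were below 2-fold, Myc also without normalization between arrays, and Ccnd2 stayed above it.

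Top2a, the topoisomerase that untangles copied DNA, was at 6.77 on MCC, 10.54 on CCC and 10.67 on PCC, 14.9-fold lower on MCC than on PCC. The checkpoint adaptor Clspn was 5.59-fold lower, the fork protector Tipin 4.43-fold lower and the clamp unloader Atad5 3.13-fold lower on MCC than on PCC, while Timeless, the partner of Tipin, was at 8.01 on MCC, 7.73 on CCC and 7.85 on PCC. In all 5 of 11 fork genes (45.5%) were at least 2-fold lower, beside 21.1% of all genes, and the highest was Rad17, at 0.40. Without normalization between arrays the differences of Timeless and Rad17 fell below 0.

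Origin firing genes had a median of -0.37 over 7 genes. Dbf4, the activating subunit of the Cdc7 kinase, was 4.70-fold lower and Cdc7 2.25-fold lower on MCC than on PCC, whereas Donson was 2.27-fold higher. The chromatin assembly list, which also holds cohesion genes such as Cdca5, had a median of -1.01. In it 5 of 7 genes were at least 2-fold lower, beside 21.1% of all genes, led by Chaf1a (3.69-fold), the large subunit of the CAF-1 histone chaperone. Asf1b, Cdca5 and Nasp lay just past 2-fold, at -1.01, -1.01 and -1.03. In some processing alternatives they were short of it, at -0.63, -0.74 and -0.96 at the smallest. Tonsl, at -0.01, was the highest of the 7 measured on both arrays and changed sign between processing alternatives. Esco2, a cohesin acetyltransferase, was not detected on MCC and was at least 6.87-fold lower there than on PCC, and Mms22l was likewise at least 3.25-fold lower. Asf1a, a histone chaperone, was detected on MCC only and was at least 1.64-fold higher there than on PCC. Among polymerase accessory genes, with a median of -0.19, the translesion polymerase Polh was 3.33-fold lower and Pold4, the small delta subunit, was 2.81-fold higher on MCC than on PCC.

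Nucleotide synthesis beyond the members was mixed. In the deoxynucleotide pool, with a median of -0.55 over 13 genes, Dtymk, which makes dTDP, was at 7.90 on MCC, 9.90 on CCC and 9.75 on PCC, with a difference of -1.85. In the same list Samhd1, which breaks down deoxynucleotides, was 3.62-fold higher on MCC, at 11.56 on MCC, 10.39 on CCC and 9.70 on PCC, but its difference of 1.86 was 0.29 when the least bright detected probe was used. The mitochondrial thymidine kinase Tk2 was 2.73-fold higher on MCC than on PCC, whereas the cytosolic Tk1 was lower. De novo purine genes had a median of -1.06, with 5 of 9 at least 2-fold lower, beside 21.1% of all genes, from Adss (4.32-fold lower) to Impdh1 (1.73-fold higher). Pyrimidine genes had a median of -0.17 over 5 genes, from Umps (2.85-fold lower) to Dhodh (0.38, and below 0 without normalization between arrays).

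Regulators of entry into S phase differed in both directions, with a median of 0.09 over 17 genes, 7 (41.2%) at least 2-fold lower and 2 (11.8%) at least 2-fold higher on MCC than on PCC, beside 21.1% and 14.2% of all genes. Tfdp2, Ccne1 and Myc were detected on PCC and not on MCC, with lower levels on MCC by at least 2.92-fold for Tfdp2, 2.31-fold for Ccne1 and 2.35-fold for Myc. Counting single-array regulators by their bounds gave a median of -0.09 over 21 genes. E2f1, an activating E2F factor, was at 7.22 on MCC, 10.15 on CCC and 10.71 on PCC, 11.2-fold lower on MCC than on PCC. Cyclin D1 (Ccnd1) was at 10.61 on MCC, 13.45 on CCC and 13.76 on PCC, 8.89-fold lower on MCC than on PCC. E2f2 and cyclin D2 (Ccnd2) went the other way. E2f2 was at 9.39 on MCC, 7.87 on CCC and 6.74 on PCC, 6.28-fold higher on MCC than on PCC. Ccnd2 was at 11.17 on MCC, 8.66 on CCC and 6.996 on PCC, 18.1-fold higher on MCC than on PCC. Samhd1, E2f2 and Ccnd2 are also expressed by lymphocytes, whose markers were higher on MCC (mean levels of 10.6 on MCC, 8.05 on CCC and 5.91 on PCC), and the part of those cells in these values was not tested. The cyclin-dependent kinase inhibitor Cdkn1a was 1.86-fold higher on MCC than on PCC. Donson, Pold4, Samhd1 and Tk2 were below 2-fold without normalization between arrays, and stayed higher on MCC there.

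**Figure D4:**
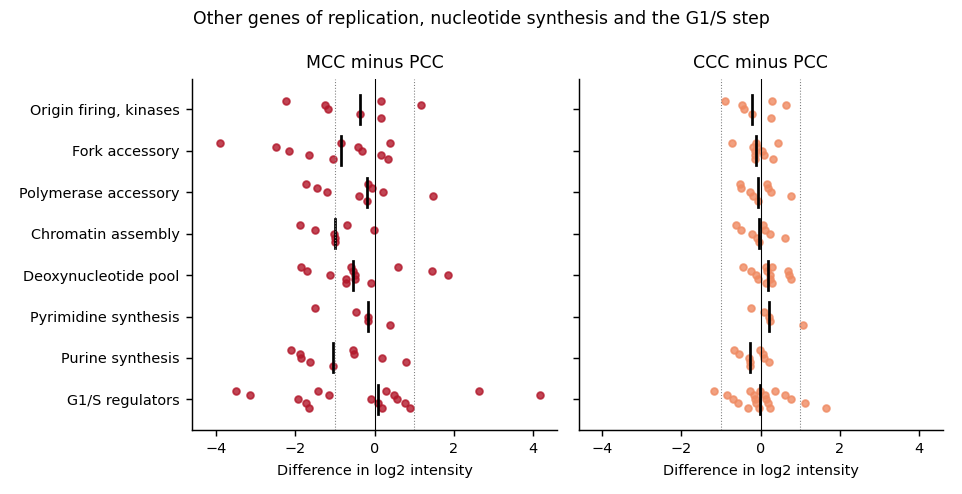
Difference in log2 intensity (horizontal axis) of genes that act beside the members, 1 point per gene and a black bar at each list's median, MCC minus PCC on the left and CCC minus PCC on the right, with dotted lines at 2-fold. On the left the chromatin assembly (-1.01) and purine (-1.06) lists have the lowest medians and the regulators spread widest, from -3.49 to 4.17.

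The size of the members' difference depended on how the arrays were scaled to each other. Relative to the median of all genes, the members' median was -0.83 (MCC minus PCC), between -1.08 and -0.63 over the processing alternatives, and 0.12 (CCC minus PCC), between 0.04 and 0.16. Without normalization between arrays the median of all genes itself was -0.75 (MCC minus PCC), and the members' median was -1.57.

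**Figure D5:**
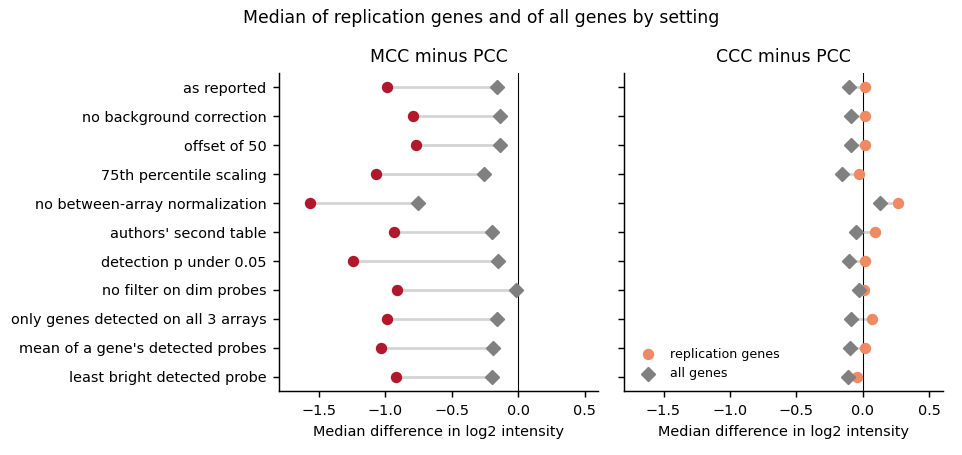
Median difference in log2 intensity (horizontal axis) of replication genes (circles) and of all genes (diamonds) in each processing alternative (rows), MCC minus PCC on the left and CCC minus PCC on the right. On the left the circle lies left of the diamond in every row, by 0.63 to 1.08, also without normalization between arrays, where both move left.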

How the data were processed

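RNA of sorted 4T1 cells was hybridised to Illumina mouse BeadChips, 1 array per group. Probe intensities were deposited by the authors, who exported them with GenomeStudio per the submitters' processing notes. Values below 0 make up 24.0% to 28.3% of the deposited intensities of an array, as after background subtraction. The authors also deposited detection p-values, per the file headers. In a second table the authors deposited linear intensities, each column linear in that array's own intensities (slopes of 1.53 for MCC, 0.865 for CCC and 0.926 for PCC, medians of 35.1, 32.0 and 42.9). It is on a linear scale, runs in the same direction and is not centred by gene, but each array has its own slope and offset, and the method behind them is not stated.

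Intensities were corrected, quantile normalized and put on a log2 scale with neqc of limma 3.58.1 (R 4.3.3), with background inferred from the detection p-values and an offset of 16. Of 25697 probes, 23978 have 1 gene symbol, 0 have several here and 1719 are unnamed, and 23962 matched the mouse reference table (GRCm38.p6), through which symbols were updated. A gene is its brightest probe, by mean log2 level, among probes detected at a detection p under 0.01. A difference is 1 log2 level minus another, for a gene detected on both arrays compared. With detection on 1 of them it has a bound, against the higher of the lowest detected level on the other array and its own value there. With 1 array per group no test was run, and the number of arrays limits the precision. The steps were tested on simulated data. Tables and plots were made in Python 3.11.15 (numpy 2.4.6, pandas 2.3.3, matplotlib 3.10.9).

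The members and lists were chosen with earlier results of these data known. All 45 members are accounted for. From each list of genes beside the members the text names the highest and lowest measured gene and those at least 2-fold against the members' median, and other genes named there were chosen after their values were seen. Alternatives changed the background step, the scaling, the detection rule and the choice of probe, 1 at a time.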

Additional observations from a re-analysis of the deposited data

How the results depend on the processing

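With 1 array per group, no replicate could be left out, and no paired analysis was possible because each group has 1 array. A value is said to have moved when it differed from the reported one by more than the median gap between probes of 1 gene (0.37 for MCC minus PCC, 0.23 for CCC minus PCC, 0.41 for MCC minus CCC), and a count when it differed by over 1.5 times. No difference of at least 2-fold, among the members and the wider list, changed sign in any alternative that gave it a value. The members' median ran from -1.57 to -0.77 (MCC minus PCC), from -0.04 to 0.26 (CCC minus PCC) and from -1.91 to -0.97 (MCC minus CCC), and the count at least 2-fold lower on MCC from 14 to 26 against PCC and from 14 to 26 against CCC. Without normalization between arrays, the members' medians were -1.57, 0.26 and -1.91 in that order of pairs. In that setting 26 members were at least 2-fold lower on MCC than on PCC. All 9 complexes had a median at least 2-fold lower on MCC than on PCC and than on CCC. The wider list had medians of -1.10, 0.25 and -1.42 there. At a size of 2-fold or more, 2 of its genes were higher on MCC than on PCC. At the same size 0 were lower and 7 higher on CCC than on PCC, and 51 were lower and 1 higher on MCC than on CCC. The medians of all genes were then -0.75, 0.13 and -0.83, which is the shift that this scaling leaves in. Orc3 passed 2-fold higher (1 member) on MCC and on CCC against PCC under 75th percentile scaling, and on CCC without normalization. In the wider list 2 genes were at least 2-fold lower on CCC than on PCC under 75th percentile scaling. With no background correction or an offset of 50, 1 gene of the wider list was at least 2-fold higher on CCC than on PCC and 0 were at least 2-fold lower. Also 0 were at least 2-fold lower when a gene had to be detected on all 3 arrays. Of all genes at least 2-fold apart, 40.2% were higher on MCC than on PCC as reported and 14.7% without normalization between arrays; for CCC and PCC these shares were 57.4% and 82.4%, and for MCC and CCC 51.0% and 11.9%. Dim probes limit the folds of Cdc6, Pcna, Cdc45 and Mcm3, whose levels on MCC lie within 0.5 of the lowest detected level.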
